A study of Papio anubis with 28 samples.

Results

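The cytochrome P450 (CYP), UDP-glucuronosyltransferase (UGT) and cytosolic sulfotransferase (SULT) genes were followed through the native bladder, the ileum graft and the regenerated bladder tissue of olive baboons. They were taken by name, as every gene of the count table whose symbol begins with CYP, UGT or SULT followed by a digit. This gave 59 of the 27533 genes in the table: 42 CYP, 9 UGT and 8 SULT genes, here called the members. A further 6280 genes of the table carry no symbol, so a member without a symbol would be missed. Of the 59 members, 52 had enough reads to be tested (39 CYP, 6 UGT and 7 SULT genes), and the other 7 are described at the end by their reads.

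RNA was sequenced from 28 libraries of 14 animals, and every animal contributed a native bladder library and a library of the graft placed in that bladder. All animals are labelled wild type (WT), and ages were not used here. Entero animals (5) carried an ileum graft. SIS animals (5) and PRS animals (4) carried tissue that had regenerated where a scaffold with primary bone marrow cells was implanted, the cells being labelled MSC/CD34+ HSPC (mesenchymal stem or stromal cells with CD34-positive blood stem and progenitor cells). The labels give the native library of an animal the same treatment as its graft, so native bladder here means native bladder that lies beside a graft, and no bladder of an unoperated animal and no ungrafted ileum was analysed here. SIS is the usual short form of small intestinal submucosa, a decellularised matrix. Not given in the sources used here were the meaning of PRS, the time after surgery and the part of the graft taken.

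These genes code for enzymes that make fat-soluble molecules easier to excrete. P450 enzymes use haem and electrons from NADPH to oxidise drugs, carcinogens, fatty acids, sterols and hormones, and UGT and SULT enzymes attach a sugar acid or sulfate to such molecules and to the oxidised products. Enterocytes of the small intestine are a main site of this first-pass metabolism, while in the bladder the urothelium meets what the kidney has excreted. Other P450s have little part in detoxification and make or break down bile acids, steroid hormones, vitamin D and retinoic acid.

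Total counts per library lay between 20975648 and 35669026, and 0 reads over the 5 ileum libraries set an upper limit of 0.0237 CPM there. Levels are given as CPM, the usual unit of counts scaled to a common depth, on library sizes scaled by TMM, and as CPM per kb of the deposited gene length where genes are compared with each other. The tissue labels were checked against marker genes. VIL1, the villin of the intestinal brush border, was at 152 to 1393 CPM in the ileum graft and at most 0.754 CPM in any other library, and the uroplakin UPK1A was at 42.4 to 2259 CPM in native and regenerated bladder and at most 6.09 CPM in the ileum graft. Summed over the lists they come from, the 7 intestinal markers in the table were at 1664 to 7504 CPM in the graft and at most 202 CPM elsewhere, but the 7 urothelium markers overlapped, with 482 to 2358 CPM in the graft and 419 to 5729 CPM in the native bladder of the Entero arm. Nearly all of the urothelium sum in the graft was KRT20 (479 to 2338 CPM), a keratin that intestinal epithelium also makes and that was at most 11.8 CPM in the other groups. UPK1A was lowest in native library 4 of each arm (153, 70.3 and 168 CPM) and in regenerated library 2 of the SIS arm (70.98 CPM) and library 4 of the PRS arm (42.4 CPM). Albumin (ALB), the defining transcript of the liver, was at most 2.19 CPM in any library, but the 6 hepatocyte markers summed to 35.2 to 553 CPM in Entero native bladder and 1.01 to 8.29 CPM in the graft, without overlap. In native bladder this was nearly all TTR, a carrier of thyroid hormone and retinol, at 34.8 to 552 CPM there, 0 to 7.84 CPM in the graft and 0 to 274 CPM in the SIS and PRS arms, and its part in the results was not tested. In pieces of whole tissue, fewer cells of a type and less RNA per cell cannot be told apart.

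Expressed per kb, CYP3A5 (gene ID ENSPANG00000023122), a drug- and steroid-oxidising P450, had the highest mean of the 59 members in all 6 groups. Its level per kb was 142 ± 94.8 CPM in the native bladder of the Entero arm (mean ± SD, n = 5), 77.5 ± 57.4 CPM in that of the SIS arm (n = 5) and 128 ± 76.2 CPM in that of the PRS arm (n = 4). The single UGT1 row of the table, UGT1A10B, came next in the Entero native bladder (52.7 ± 35.5 CPM per kb, n = 5), followed by CYP1A1 (36.6 ± 12.9), CYP1B1 (27.8 ± 11.7), CYP39A1 (26.7 ± 6.69) and SULT1C4 (23.6 ± 24.8). The spreads of these 5 genes overlap, so their order is not resolved. In the ileum graft the order behind CYP3A5 (617 ± 373 CPM per kb, n = 5) was CYP3A4 (433 ± 345), CYP4F2 (362 ± 254), CYP27A1 (239.5 ± 114), UGT1A10B (153 ± 101) and CYP2J2 (126 ± 149.7), again with overlap between neighbours. CYP3A4, CYP4F2 and CYP2J2 were not among the 6 highest members of any native or regenerated group. In the regenerated tissue of the SIS arm the 6 highest were CYP3A5 (139 ± 58.7), UGT1A10B (49.4 ± 29.9), CYP39A1 (31.8 ± 5.28), CYP1B1 (23.2 ± 18.5), CYP27A1 (23.01 ± 9.84) and CYP4V2 (22.2 ± 10.01 CPM per kb, n = 5). In that of the PRS arm they were CYP3A5 (214 ± 158), CYP1A1 (117 ± 231, carried by 1 library), UGT1A10B (64.9 ± 54.4), CYP27A1 (38.03 ± 28.3), SULT1C4 (27.2 ± 35.6) and CYP1B1 (24.01 ± 33.1 CPM per kb, n = 4).

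Summed over the 42 CYP genes, the Entero arm held 669 ± 136 CPM in native bladder and 4088 ± 2528 CPM in the ileum graft (n = 5 each), and the libraries of these groups did not overlap (517 to 854 against 1159 to 7220.0 CPM). The 9 UGT genes summed to 307 ± 205 CPM in native bladder and 1033 ± 709 CPM in the graft, with overlap (71.4 to 635 against 364 to 1906 CPM). The 8 SULT genes summed to 26.4 ± 21.02 and 285 ± 266 CPM, without overlap (10.6 to 62.8 against 78.8 to 721 CPM). Native and regenerated tissue overlapped in all 3 sums in both other arms. In the SIS arm the CYP sum was 529.8 ± 230.4 CPM in native and 636 ± 139 CPM in regenerated tissue (n = 5 each). In the PRS arm it was 757 ± 557 and 1099.9 ± 1029 CPM (n = 4 each), and the highest library in both PRS groups was that of animal 4, in which CYP1A1 alone made up 821 of 1584 CPM in native bladder and 1533 of 2586 CPM in regenerated tissue. These sums are a description and were not tested.

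**Figure D1:**
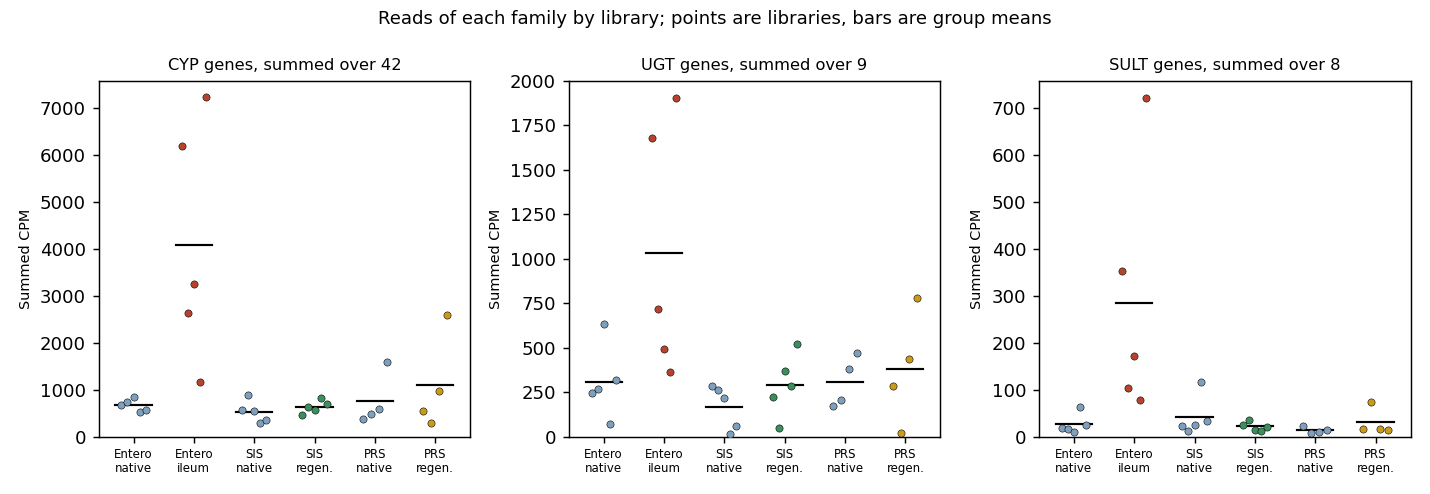
Summed CPM (y axis) of the 42 CYP, 9 UGT and 8 SULT genes in each of the 28 libraries, by group, with bars at the group means. The ileum libraries reach highest (CYP sum 1159 to 7220.0 CPM), and the PRS animal with high CYP1A1 stands above the other libraries of its groups (1584 and 2586 CPM).

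**Figure D2:**
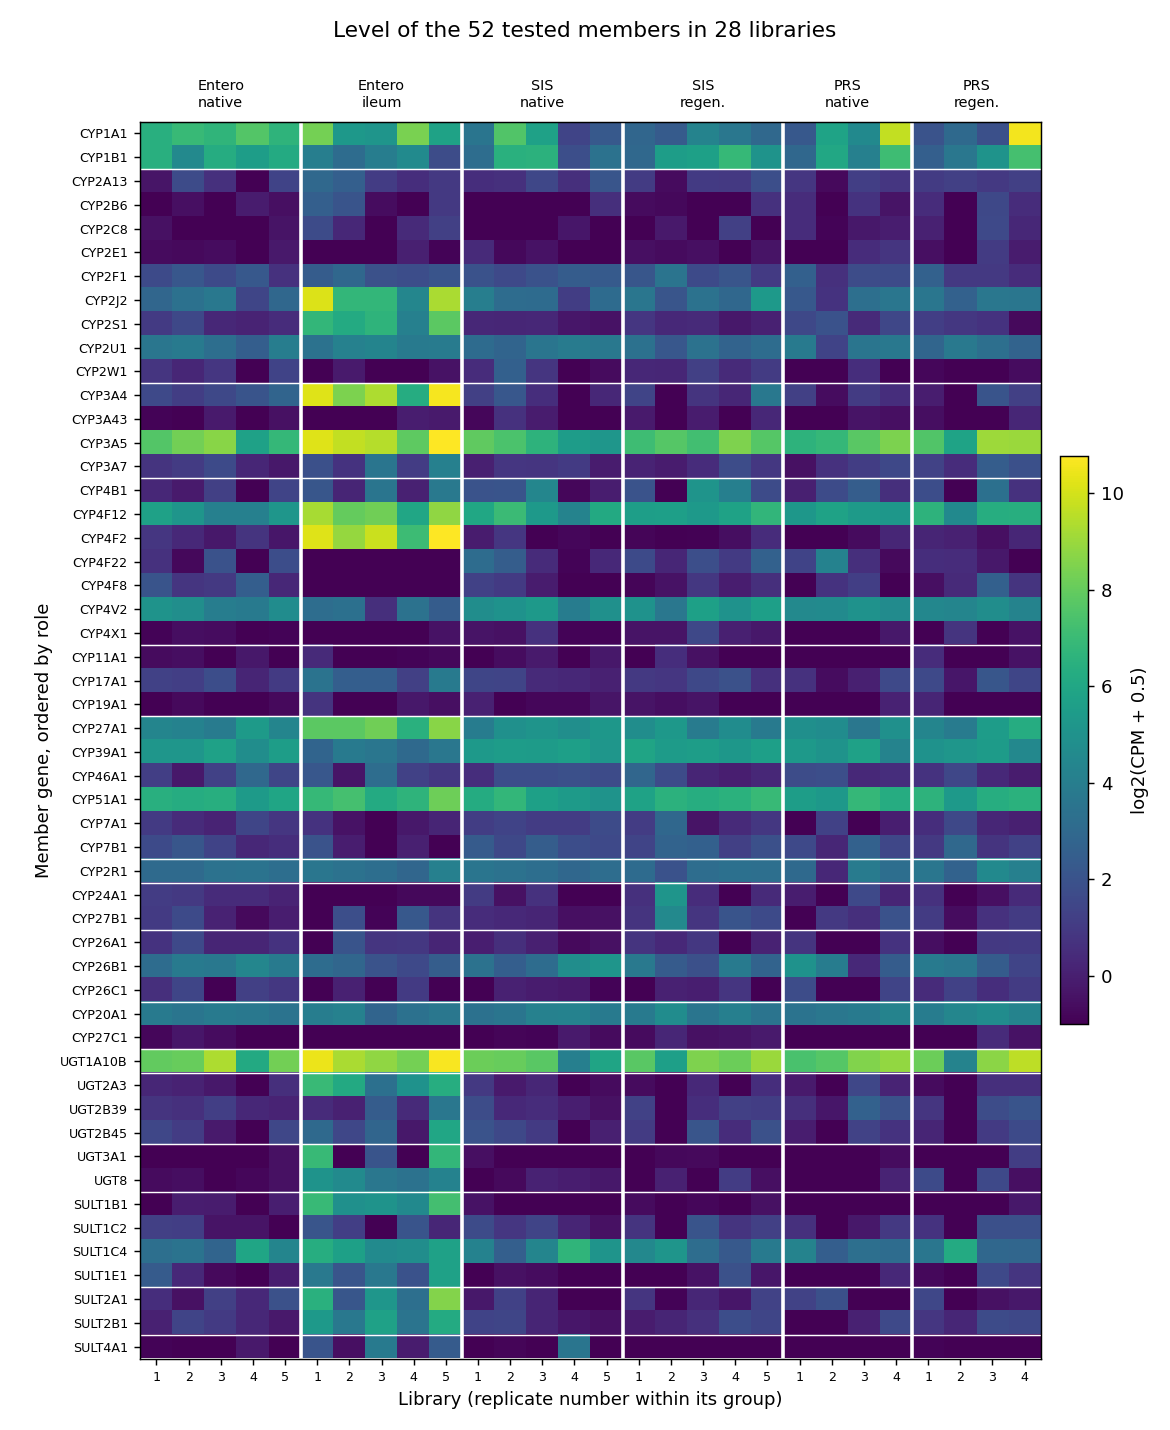
Level of each of the 52 tested members (rows) in each of the 28 libraries (columns, by group), as log2(CPM + 0.5). The high values in the 5 Entero ileum columns at CYP2S1, CYP3A4, CYP4F2, UGT2A3 and SULT1B1 have no counterpart in the regenerated columns, while CYP3A5, CYP39A1 and CYP4V2 have reads in every column.

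Ileum graft was compared with native bladder in the Entero arm to address how the metabolic genes of bowel placed in the bladder wall differ from those of the wall. Of the 52 tested members, 16 were higher and 4 lower in the graft at an adjusted p under 0.05 (edgeR quasi-likelihood test, Benjamini-Hochberg over all 17177 genes). This is 38.5% of those tested (30.8% higher and 7.69% lower), where 15% of all genes tested passed, 7.72% higher and 7.33% lower. The median log2 fold change was 1.19 over the tested members and -0.03 over all genes tested. A gene that is high in the ileum graft alone also passes the filter on low counts, so the 52 are not a neutral sample of the 59. By family, 10 CYP genes rose and 4 fell of 39 tested, 3 of 6 UGT genes rose and 3 of 7 SULT genes rose. With the animal as a block 17 members passed (13 higher, 4 lower), and CYP17A1, CYP3A7 and CYP51A1 no longer did. The 15% of all genes is from the fit without the block, and the share with it was not counted. Values by library are given below in the order of the library numbers, and native and graft libraries of the same number within an arm come from the same animal.

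**Figure D3:**
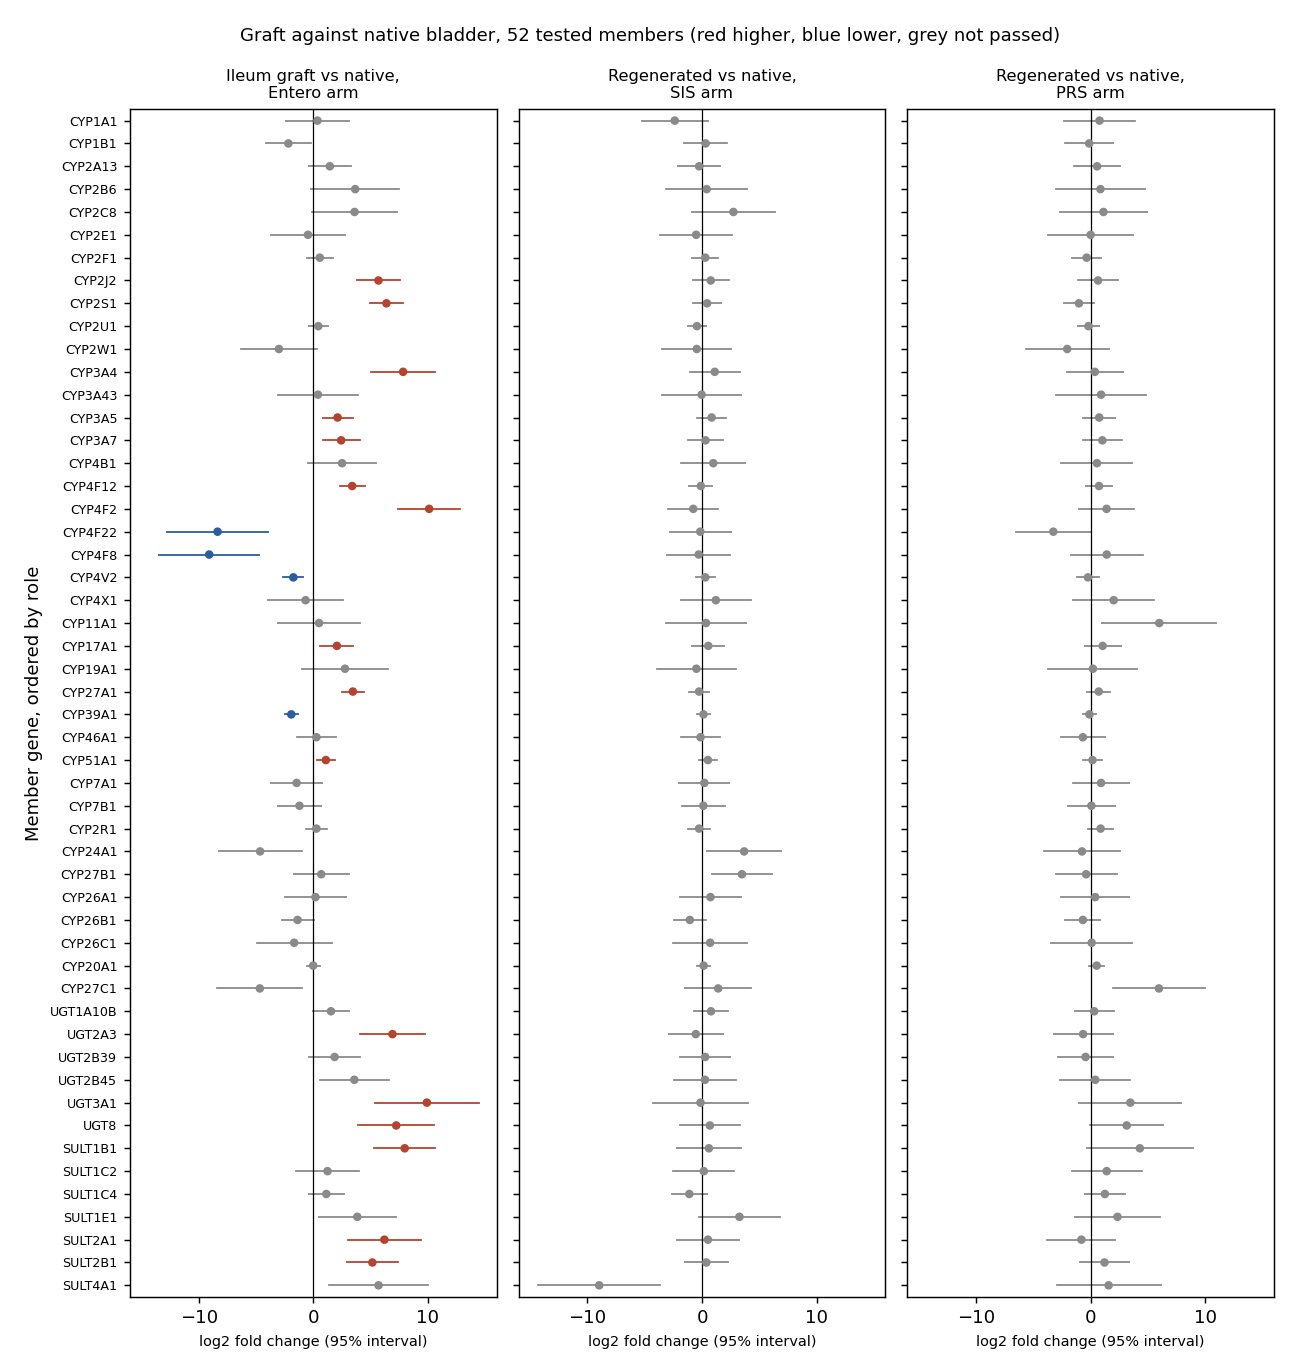
Log2 fold change of graft over native bladder (x axis, points) with its 95% interval (lines) for each of the 52 tested members, in the Entero, SIS and PRS arms. Red marks the 16 members that were higher and blue the 4 that were lower in the Entero arm, and in the SIS and PRS arms 0 members passed.

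The CYP3A genes, which oxidise many drugs in the gut and liver, rose in 3 of 4 cases. CYP3A4 (gene ID ENSPANG00000017641), the main drug-oxidising P450 of enterocytes, was at 2.57, 1.71, 2.46, 3.61 and 6.34 CPM in native bladder and at 1185, 350.5, 635, 78.2 and 1563 CPM in the ileum graft. The groups did not overlap and the graft was higher in 5 of 5 animals, by 7.83 ± 1.37 (SE) on the log2 scale (edgeR, adjusted p = 0.000221). CYP3A5 was at 195, 311, 407, 53.2 and 113 CPM in native bladder and at 1191, 826, 697, 228 and 1739.5 CPM in the graft. It was thus already abundant in native bladder, graft library 4 lay within the native range, and the log2 difference was 2.12 ± 0.64 (edgeR, adjusted p = 0.0241). CYP3A7, known as the fetal liver form, rose from a mean of 1.28 ± 0.88 to 6.92 ± 7.02 CPM (n = 5), by 2.43 ± 0.78 in log2 terms (edgeR, adjusted p = 0.0356). The call for CYP3A7 was lost with the animal as a block (edgeR, adjusted p = 0.184), with the Entero arm fitted alone (0.0971) and without native library 1, 2, 4 or 5 or ileum library 3 or 5 (0.0552 to 0.153), and that for CYP3A5 without native library 1, 4 or 5 or ileum library 5 (0.0564 to 0.0806). CYP3A43 was at most 0.475 CPM in the arm. The CYP3A genes resemble each other in sequence, and how reads that match several of them were counted is unknown here, so the split between them is uncertain.

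Among the 9 tested genes of CYP family 2, which holds oxidisers of drugs and of polyunsaturated fatty acids, CYP2J2 and CYP2S1 rose and none fell. CYP2J2, an arachidonic acid epoxygenase, was at 6.902, 10.02, 12.5, 2.23 and 7.19 CPM in native bladder and at 1141, 109, 112, 20.9 and 612 CPM in the ileum graft. Every graft library exceeded every native one, with a log2 difference of 5.68 ± 0.93 (edgeR, adjusted p = 0.000113), although the graft libraries themselves spanned 54.6-fold. CYP2S1, an epithelial P450 outside the liver, was at 0.615 to 2.47 CPM in native bladder and at 109, 71.9, 101, 17.1 and 225 CPM in the graft. The groups were far apart, and CYP2S1 had the smallest p of the members in this comparison (log2 difference 6.38 ± 0.70, edgeR, adjusted p = 1.07e-06). CYP2B6 and CYP2C8, drug oxidisers best known from liver, were at 0 to 5.33 and 0 to 2.72 CPM in the graft, and their log2 differences of 3.65 (95% interval -0.17 to 7.47) and 3.60 (-0.13 to 7.32) did not pass (edgeR, adjusted p = 0.197 and 0.192). CYP2U1, CYP2F1, CYP2A13, CYP2W1 and CYP2E1 did not pass either.

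CYP family 4, whose enzymes hydroxylate fatty acid chains at or near their end, split in both directions: CYP4F2 and CYP4F12 rose, and CYP4F8, CYP4F22 and CYP4V2 fell, out of 7 tested. CYP4F2 (gene ID ENSPANG00000012375), which inactivates leukotriene B4 and vitamin K, was at 1.301, 0.784, 0.357, 1.23 and 0.309 CPM in native bladder and at 1167, 480.2, 903, 134 and 1749 CPM in the graft. The groups did not overlap, and the log2 difference of 10.11 ± 1.31 was the largest among the members that rose (edgeR, adjusted p = 7.63e-06). CYP4F12, a fatty acid hydroxylase known from small intestine, was higher in 5 of 5 grafts, from 31.6 ± 15.2 to 331 ± 202 CPM (log2 difference 3.39 ± 0.54, edgeR, adjusted p = 7.78e-05). CYP4F8, a prostaglandin hydroxylase, was at 3.69, 1.28, 1.43, 5.27 and 0.735 CPM in native bladder (338 reads) and had no read in the 5 ileum libraries. Against a floor of 3 reads over the group, native bladder was at least 112-fold higher (edgeR, adjusted p = 0.00535). CYP4F22, which hydroxylates very long fatty acids of the skin barrier, likewise had no read in the ileum graft. Native bladder held 194 reads of it, at least 64.3-fold more (edgeR, adjusted p = 0.00987), though native library 4 also had none. CYP4V2, a fatty acid hydroxylase whose loss causes a retinal dystrophy, fell from 22.97 ± 8.196 to 6.86 ± 3.84 CPM and was lower in 5 of 5 animals (log2 difference -1.74 ± 0.43, edgeR, adjusted p = 0.0057). Fitted on the libraries of the Entero arm alone, CYP4V2 missed the threshold (edgeR, adjusted p = 0.0559). CYP4B1, which activates carcinogenic aromatic amines, was at 0.57 to 12.9 CPM in the graft and 0 to 2.204 CPM in native bladder and did not pass (edgeR, adjusted p = 0.258). CYP4X1, a P450 of unclear role, was at most 0.25 CPM in the arm. As for CYP3A, the sharing of reads among the CYP4F genes was not tested.

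The P450s of cholesterol and bile acids also moved in both directions. CYP27A1, a mitochondrial sterol hydroxylase of bile acid synthesis, was at 20.1, 18.01, 14.3, 41.8 and 19.99 CPM in native bladder and at 224, 224, 295, 88.6 and 415 CPM in the ileum graft. All graft libraries were above all native ones, with a log2 difference of 3.45 ± 0.47 (edgeR, adjusted p = 1.46e-05). CYP39A1, an oxysterol hydroxylase, went the opposite way, with 36.2, 35.5, 52.3, 26.9 and 45.9 CPM in native bladder and 6.34, 13.8, 11.8, 7.61 and 12.2 CPM in the graft. It was lower in 5 of 5 animals without overlap (log2 difference -1.93 ± 0.27, edgeR, adjusted p = 1.58e-05). CYP51A1, an enzyme of cholesterol synthesis, was at 147 ± 85.3 CPM in the graft and 69.03 ± 18.1 CPM in native bladder (log2 difference 1.09 ± 0.38, edgeR, adjusted p = 0.0498). That call was lost with the animal as a block (edgeR, adjusted p = 0.11), with the Entero arm fitted alone (0.0945), with no filter on low counts (0.0649) and without any 1 of the native libraries or ileum library 2 or 5 (0.0651 to 0.234). CYP7A1, the rate-limiting enzyme of bile acid synthesis in liver, was at most 2.27 CPM in the arm, and CYP7A1, CYP7B1 and CYP46A1 did not pass (edgeR, adjusted p = 0.414, 0.428 and 0.877). Without ileum library 1, which held 3.52 CPM of CYP7B1 where the other ileum libraries held at most 0.523, CYP7B1, another oxysterol hydroxylase, passed as lower in the graft (edgeR, adjusted p = 0.0252).

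Of the 3 tested P450s of steroid hormone synthesis, CYP17A1, an enzyme of androgen and cortisol synthesis, passed. It was at 1.95, 1.77, 2.97, 0.653 and 1.51 CPM in native bladder and at 10.7, 5.22, 5.31, 1.85 and 13.9 CPM in the graft, with graft library 4 inside the native range. The log2 difference of 2.06 ± 0.70 (edgeR, adjusted p = 0.046) was not past the threshold with the animal as a block (0.0591), with the Entero arm fitted alone (0.0559), with no filter on low counts (0.0653) or without native library 1, 2, 4 or 5 or ileum library 1, 2 or 5 (0.0537 to 0.138). CYP11A1, which starts steroid synthesis, and CYP19A1, the aromatase, were at most 0.805 and 1.21 CPM in any library of the arm. Of the 2 remaining P450s, CYP20A1, an orphan P450, was at 12.4 ± 1.28 CPM in native bladder and 12.3 ± 4.43 CPM in the graft (log2 difference -0.01, 95% interval -0.59 to 0.56). CYP27C1 had 17 reads in native bladder and none in the graft, at least 5.63-fold fewer, and did not pass (edgeR, adjusted p = 0.0911).

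The family 1 P450s, vitamin D P450s and retinoic acid P450s gave no call between ileum graft and native bladder. CYP1A1 (gene ID ENSPANG00000015998), which oxidises polycyclic aromatic hydrocarbons and is induced through the receptor AHR, was at 86.8, 121, 102, 194 and 102 CPM in native bladder and at 317, 38.9, 34.3, 334 and 54.6 CPM in the graft. Ileum libraries 1 and 4 lay above and the other 3 below all native libraries, and the log2 difference was 0.36 (95% interval -2.39 to 3.12, edgeR, adjusted p = 0.902). CYP1B1, a related enzyme that acts on oestrogens and hydrocarbons, had 60.8 ± 25.7 CPM in native bladder and 13.4 ± 8.15 CPM in the graft and a lower value in 5 of 5 grafts. It missed the threshold in the fit of all groups (log2 difference -2.18 ± 0.94, edgeR, adjusted p = 0.124) but not in a fit on the Entero arm alone (0.0189). CYP24A1, which inactivates vitamin D, was at 0.619 to 1.63 CPM in the 5 native libraries and at 0, 0, 0, 0.0951 and 0.0998 CPM in the graft. The groups did not overlap but the reads were few (edgeR, adjusted p = 0.0764, and 0.0157 in the Entero arm alone). CYP27B1, which makes active vitamin D, and CYP2R1, a vitamin D hydroxylase, did not pass (edgeR, adjusted p = 0.757 and 0.763). CYP26B1, which clears retinoic acid, was at 8.49 to 20.7 CPM in native bladder and 2.57 to 8.45 CPM in the graft (log2 difference -1.38, 95% interval -2.77 to 0.02, edgeR, adjusted p = 0.182, and 0.0491 in the Entero arm alone). CYP26A1 and CYP26C1, of the same function, were at most 3.71 and 2.27 CPM in the arm.

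Of the UGT genes, UGT2A3, UGT8 and UGT3A1 rose. UGT2A3, a bile acid glucuronosyltransferase, was at 0 to 1.01 CPM in native bladder and at 127, 71.4, 9.78, 31.5 and 79.1 CPM in the ileum graft (log2 difference 6.91 ± 1.38, edgeR, adjusted p = 0.000963). UGT8, which makes galactosylceramide, was at 0 to 0.232 CPM in native bladder and at 33.04, 24.7, 12.2, 10.4 and 18.4 CPM in the graft (log2 difference 7.23 ± 1.62, edgeR, adjusted p = 0.0029). Neither gene overlapped between the tissues, and the 3.19-fold range of UGT8 over the graft libraries was the narrowest among the risen members with reads in all 5. UGT3A1, which attaches N-acetylglucosamine in place of glucuronic acid, was at 120.1, 0, 3.602, 0 and 112 CPM in the graft. Graft libraries 2 and 4 held no read of it, and in native bladder only library 5 held any (0.232 CPM); the log2 difference was 9.91 ± 2.21 (edgeR, adjusted p = 0.0028). UGT1A10B (gene ID ENSPANG00000018059) was at 242, 264, 633, 70.6 and 312 CPM in native bladder and 1389.8, 619.6, 458, 321 and 1621 CPM in the graft. The groups overlapped and it did not pass (log2 difference 1.54, 95% interval -0.01 to 3.08, edgeR, adjusted p = 0.179). UGT1A transcripts share their last exons, so this row may hold reads of several of them. UGT2B39 and UGT2B45, of a subfamily that conjugates steroids, reached 12.3 and 62.6 CPM in ileum library 5 but overlapped with native bladder (edgeR, adjusted p = 0.277 and 0.0991).

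Of the SULT genes, SULT1B1, SULT2A1 and SULT2B1 rose. SULT1B1, which sulfates thyroid hormones and small phenols, was at 0, 0.465, 0.436, 0 and 0.503 CPM in native bladder and at 122, 29.7, 32.1, 23.9 and 153 CPM in the graft (log2 difference 7.97 ± 1.29, edgeR, adjusted p = 0.000145). SULT2A1, the sulfotransferase of dehydroepiandrosterone and bile acids, was at 89.7, 3.91, 35.4, 9.27 and 383 CPM in the graft and at most 3.29 CPM in native bladder (log2 difference 6.20 ± 1.53, edgeR, adjusted p = 0.00633). Neither overlapped between the tissues, but the graft libraries spanned 97.9-fold for SULT2A1, the widest range among the risen members with reads in all 5. SULT2B1, a cholesterol and pregnenolone sulfotransferase, rose from 1.06 ± 0.745 to 38.1 ± 26.7 CPM (log2 difference 5.15 ± 1.07, edgeR, adjusted p = 0.00142). SULT1E1, the oestrogen sulfotransferase, had 17.2 ± 20.5 against 1.199 ± 1.94 CPM, with a higher value in 5 of 5 grafts, and did not pass (edgeR, adjusted p = 0.118). SULT4A1, an orphan sulfotransferase of nervous tissue, was at 0.201 to 13.6 CPM in the graft and at most 0.384 CPM in native bladder (edgeR, adjusted p = 0.0772). Its highest ileum library, number 3, was also the highest for the sum of 4 neuron transcripts (ELAVL4, UCHL1, PRPH and SNAP25, chosen after the values were seen; 185 CPM, against 7.57 to 52.1 CPM in the other 4), and their part in the result was not tested. Ileum library 4 exceeded library 1 in the neuron sum (31.4 against 25.1 CPM) but had 9 against 73 SULT4A1 reads. Library 3 was also the highest ileum library in the sum of 4 smooth muscle markers (74711 CPM), whose part was not tested either. SULT1C4 and SULT1C2 did not pass.

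**Figure D4:**
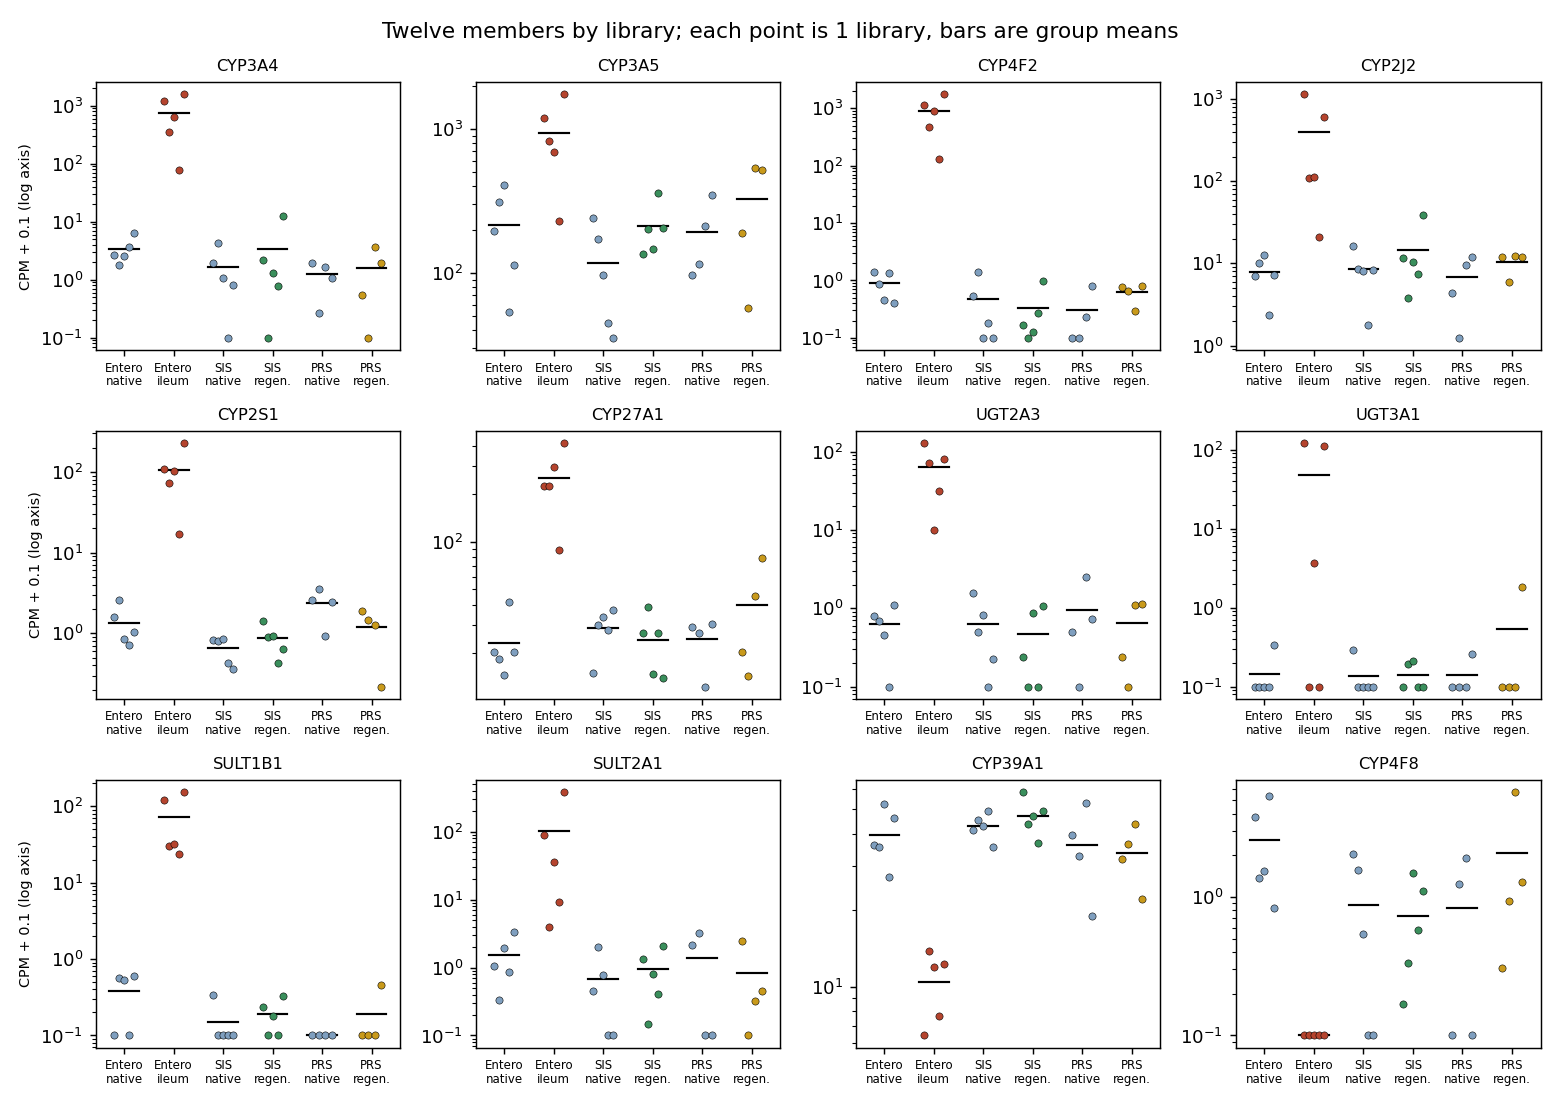
CPM + 0.1 (log axis) of 12 members in each library of the 6 groups, with bars at the group means. In the ileum graft CYP3A4 (78.2 to 1563 CPM) and CYP4F2 (134 to 1749 CPM) lie above all other groups, UGT3A1 is high in 2 ileum libraries (120.1 and 112 CPM), low in 1 (3.602 CPM) and without a read in the other 2, and CYP39A1 and CYP4F8 are low there.

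The 16 members that rose did not rise evenly over the 5 ileum grafts. Ileum library 5 was the highest for 11 of the 16, and library 4 was the lowest for 11. The fold between the highest and the lowest ileum library had a median of 9.62 over the 15 of these members with reads in all 5 libraries. VIL1 was at 838, 471, 703, 152 and 1393 CPM from library 1 to 5, so library 5 was the highest and library 4 the lowest for it too. Divided by VIL1, the range was narrower for 12 of the 15 and its median was 2.81-fold: CYP2S1 spanned 1.44-fold, CYP4F2 1.58-fold, CYP17A1 1.68-fold and CYP3A5 1.77-fold, while SULT2A1 still spanned 33.1-fold, UGT2A3 14.9-fold and CYP2J2 9.89-fold. What sets this spread was not tested. The native libraries of the Entero arm held low counts of VIL1 (0.269 to 0.754 CPM) and FABP2 (0.115 to 1.57 CPM). Those of the SIS and PRS arms held at most 0.2 and 0.0269 CPM of these genes. The sum of the 7 intestinal markers overlapped, at 23.7 to 202 CPM in Entero, 6.63 to 169 CPM in SIS and 38.8 to 202 CPM in PRS native bladder. SULT1B1 had reads in 3 of 5 native libraries of the Entero arm and in 1 of 9 of the other arms. CYP2S1, also high in the graft, had native means of 1.25 CPM in the Entero, 0.553 CPM in the SIS and 2.26 CPM in the PRS arm. The part of intestinal traces in the native values of members that are high in ileum was not tested.

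Genes that work with the members were taken from 8 lists. Among 17 tested receptors and regulators of these enzymes, 9 rose in the ileum graft and 1 fell, with a median log2 difference of 2.81. Over all genes tested the median was -0.03 and 15% passed (7.72% higher and 7.33% lower), which is the background for each list count here. NR1I2, the drug-sensing pregnane X receptor, rose from 0.456 to 119 CPM (log2 difference 8.01 ± 1.39), NR1H4, the bile acid receptor, from 0.361 to 123 CPM (8.38 ± 1.10), and HNF4A, a regulator of hepatic and intestinal genes, from 0.261 to 77.6 CPM (8.14 ± 1.27). VDR, the vitamin D receptor, rose by 3.65 ± 0.67 and PPARA, the fatty acid receptor, by 2.81 ± 0.43 in log2 terms. AHR fell from 73.5 to 19.2 CPM (log2 difference -1.94 ± 0.46, edgeR, adjusted p = 0.00485). Of 16 tested genes of electron and cosubstrate supply, 5 rose and 2 fell. POR, which hands electrons to microsomal P450s, rose by 2.11 ± 0.47 in log2 terms, FDX1, the donor of mitochondrial P450s, by 1.56 ± 0.28 and PAPSS2, which makes the sulfate donor, by 2.52 ± 0.47. STS, the steroid sulfatase, fell from 33.5 to 1.97 CPM (log2 difference -4.08 ± 0.99), and PAPSS1, the partner of PAPSS2, fell too (log2 difference -1.06 ± 0.34).

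Among 31 tested detoxifying enzymes outside the 3 families, 12 rose and 5 fell, and EPHX2, FMO5, MGST3 and NAT2 had the smallest p. The carboxylesterase CES2, which activates prodrugs in the gut, rose from 55.6 to 579.6 CPM. Of 16 tested transporters 4 rose and 1 fell, with the drug exporters ABCB1 (36.4 to 613 CPM), ABCG2 (19.6 to 278 CPM) and ABCC2 (1.61 to 131 CPM) higher in the graft and SLCO1A2 lower. Of 24 tested steroid enzymes and receptors 7 rose and 3 fell: HSD11B2, which inactivates cortisol, rose from 13.2 to 461 CPM, and the oestrogen receptor gene ESR1 and the progesterone receptor gene PGR were among those that fell. Against 7.72% higher and 7.33% lower among all genes tested, retinoid genes gave 2 higher and 4 lower of 17 tested, eicosanoid genes 1 higher and 3 lower of 12, and vitamin D and calcium genes 1 higher and 1 lower of 6. These counts rest on few genes. In each comparison of regenerated with native tissue and of PRS with SIS regenerated tissue 0 of all 17177 genes passed (edgeR), so the lists held 0 calls, and at an unadjusted p under 0.05 stood 0 to 4 genes of each list.

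The comparison of regenerated with native bladder in the SIS arm addressed how the scaffold-derived tissue stands beside the bladder wall in these genes. None of the 52 tested members passed (edgeR, adjusted p under 0.05), and 0% of all genes tested passed. At an unadjusted p under 0.05 stood 3 members (835 of all genes), and DESeq2 called 1, SULT4A1. How many of all genes DESeq2 called was not counted, in this comparison or in those below. The median log2 difference of the tested members was 0.28, beside 0.03 over all genes. CYP3A5 was at 239, 172, 96.2, 44.5 and 35.4 CPM in native and at 137, 203, 147, 359.7 and 205 CPM in regenerated tissue (log2 difference 0.84, 95% interval -0.43 to 2.11). UGT1A10B was at 277, 259, 216, 16.5 and 58.9 CPM in native and 218, 49.99, 361, 282 and 516 CPM in regenerated tissue (0.78, interval -0.74 to 2.31). Both overlapped between the tissues, and UGT1A10B was lowest where UPK1A was lowest, in native library 4 and regenerated library 2. The interval was narrower for CYP39A1, with 42.9 ± 5.08 CPM in native and 46.9 ± 7.79 CPM in regenerated tissue (log2 difference 0.13, interval -0.40 to 0.66), and for CYP27A1 (-0.25, interval -1.14 to 0.63). Of the members that are high in the ileum graft, some were low in regenerated tissue of the SIS arm: CYP3A4 was at 2.14, 0, 1.22, 0.697 and 12.7 CPM, CYP4F2 at most 0.892 CPM and SULT1B1 at most 0.233 CPM. Others were abundant there, with CYP3A5 and UGT1A10B at the values above, CYP4F12 at 41.01 to 109 CPM and CYP51A1 at 55.3 to 120.0 CPM.

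Single libraries carried much of the 3 smallest p in the SIS arm. CYP24A1 was at 1.05, 35.2, 0.897, 0 and 0.814 CPM in regenerated tissue and at 0 to 1.59 CPM in native bladder. CYP27B1 was at 1.22, 23.1, 1.25, 3.62 and 2.64 CPM in regenerated tissue and at 0.205 to 0.916 CPM in native bladder, so that it was higher in 5 of 5 animals without overlap. Regenerated library 2 was the highest for both genes, which break down and make active vitamin D. Their log2 differences were 3.49 ± 1.27 for CYP27B1 (edgeR, unadjusted p = 0.0107, adjusted p = 0.824) and 3.68 ± 1.56 for CYP24A1 (0.0266 and 0.936), and with 1 library left out at a time they ranged from 1.95 to 3.75 and from 0.23 to 4.49. SULT4A1 had 280 reads in native bladder, nearly all in library 4 (11.4 CPM), and none in regenerated tissue, at least 93.5-fold fewer (edgeR, unadjusted p = 0.00269, adjusted p = 0.612). In native library 4 the 4 neuron transcripts summed to 107 CPM, against 7.96 to 18.2 CPM in the other native libraries of the arm, and their part was not tested. That library was also the highest native library of the arm in the smooth muscle sum (60214 CPM), whose part was not tested either. SULT1E1, CYP1A1 and CYP26B1 followed, with unadjusted p from 0.066 to 0.126.

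The same comparison in the PRS arm gave 0 calls among the 52 tested members (edgeR) and 0% among all genes tested. At an unadjusted p under 0.05 stood 2 members (622 of all genes), and DESeq2 called 1, SULT4A1, on 1 read in regenerated and none in native tissue. The median log2 difference was 0.56 over the tested members and 0.02 over all genes. CYP3A5 was at 97.4, 115, 213 and 349.6 CPM in native and at 189.7, 57.2, 534 and 520.4 CPM in regenerated tissue (log2 difference 0.75, 95% interval -0.67 to 2.16). CYP27A1 was at 28.8, 26.3, 12.1 and 30.01 CPM in native and 20.2, 14.2, 45.1 and 78.9 CPM in regenerated tissue (0.70, interval -0.29 to 1.70). Both overlapped, and the intervals include no change as well as a rise of more than 1 log2 unit. The members with the smallest p rested on few reads: CYP27C1, a retinol desaturase, had 33 reads in regenerated tissue, in 2 of 4 libraries, and none in native bladder (at least 11.7-fold, edgeR, unadjusted p = 0.00645, adjusted p = 1), and CYP11A1 had 32 against none (at least 11.3-fold, 0.0208 and 1). UGT8 (1.36 ± 1.46 in regenerated against 0.156 ± 0.312 CPM in native tissue), CYP4F22 (0.553 ± 0.456 against 5.34 ± 8.58 CPM), SULT1B1 and CYP2R1 came next, with unadjusted p from 0.0512 to 0.104.

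CYP1A1 and CYP1B1 were highest in the same PRS animal in both tissues. CYP1A1 was at 4.18, 56.9, 23.2 and 821 CPM in native and at 3.57, 7.71, 3.21 and 1533 CPM in regenerated tissue of the PRS arm, and CYP1B1 at 7.23, 66.6, 16.8 and 139 CPM and at 5.44, 12.3, 32.5 and 159.6 CPM. In animal 4, AHRR, the repressor gene induced with CYP1A1 by AHR, was at 4.33 and 6.07 CPM, beside 0 to 6.003 CPM in the other libraries of the arm, and AHR itself at 67.9 and 65.6 CPM was within their 34.5 to 225 CPM. In the SIS arm CYP1A1 was at 11.5, 188, 52.9, 2.13 and 4.31 CPM in native and at 6.82, 4.77, 18.7, 12.02 and 7.48 CPM in regenerated tissue (log2 difference -2.38, 95% interval -5.28 to 0.52). Native libraries 2 and 3 lay above all regenerated ones, and the other 3 overlapped with them or lay below.

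**Figure D5:**
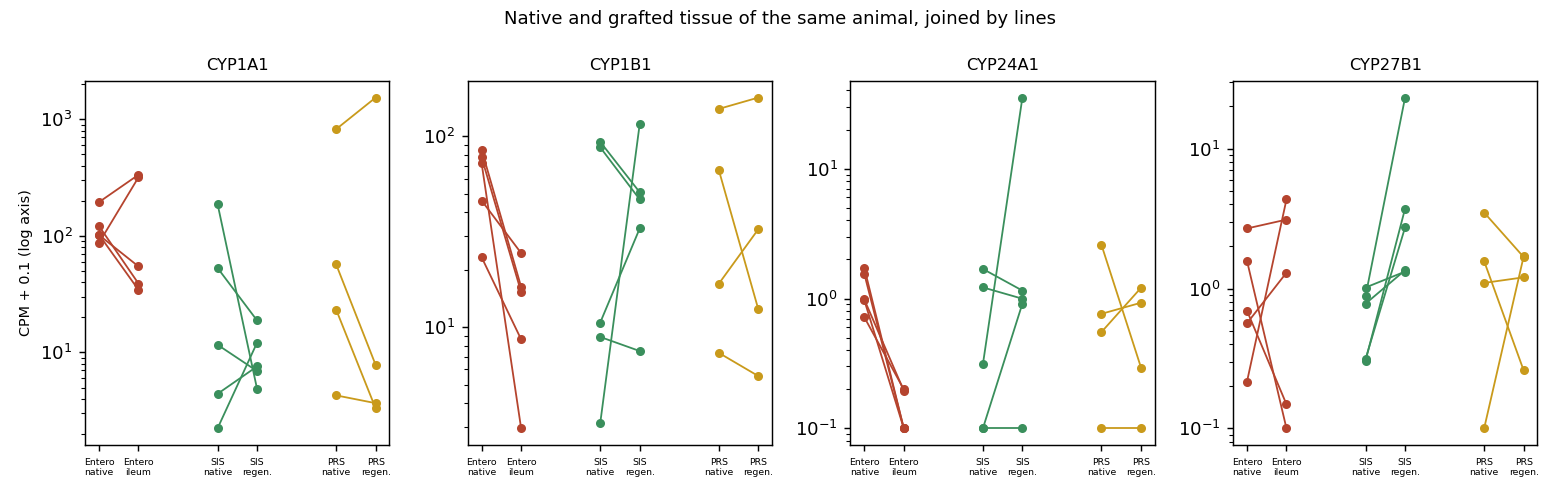
CPM + 0.1 (log axis) of CYP1A1, CYP1B1, CYP24A1 and CYP27B1, with the native and the graft library of each of the 14 animals joined by a line. In the PRS arm 1 animal holds high CYP1A1 in both tissues (821 and 1533 CPM), in the SIS arm 1 regenerated library holds high CYP24A1 and CYP27B1 (35.2 and 23.1 CPM), and the CYP1B1 line points down in all 5 Entero animals.

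Set directly against the ileum graft, SIS regenerated tissue had 6 members higher and 16 lower (42.3% of those tested, where 21.1% of all genes tested passed, 10.9% higher and 10.2% lower). PRS regenerated tissue had 5 higher and 12 lower (32.7%, where 14% of all genes passed, 7.21% higher and 6.75% lower). The median log2 difference of the tested members was -1.03 and -0.94, beside 0.04 and 0.05 over all genes. Both comparisons use the same 5 ileum libraries, so their likeness is no independent support. CYP2S1 differed by -7.10 ± 0.73 on the log2 scale in the SIS and -6.56 ± 0.79 in the PRS arm (edgeR, adjusted p = 2.66e-07 and 3.53e-06). CYP4F2 differed by -11.91 ± 1.41 and -10.70 ± 1.49, CYP3A4 by -7.83 ± 1.37 and -9.003 ± 1.60, CYP27A1 by -3.38 ± 0.47 and -2.65 ± 0.50, SULT1B1 by -9.59 ± 1.40 and -9.65 ± 1.57, and CYP2J2 by -4.79 ± 0.89 and -5.25 ± 1.01. CYP39A1 was higher in the regenerated tissue of both arms, by 2.18 ± 0.27 and 1.69 ± 0.27, and CYP4V2 by 2.36 ± 0.43 and 1.67 ± 0.44. CYP4F8 and CYP4F22, without a read in the ileum graft, were at least 30.6-fold and 123-fold higher in SIS and at least 88.2-fold and 23.4-fold higher in PRS regenerated tissue. SULT4A1 had 460 reads in the ileum graft, none in SIS regenerated tissue (at least 169-fold fewer) and 1 in PRS regenerated tissue (ratio 399.7, 95% counting interval 71.4 to 15823).

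CYP3A5, CYP3A7, CYP17A1, CYP24A1 and UGT8 passed against the ileum graft in the SIS arm and not in the PRS arm, while no member passed when PRS and SIS regenerated tissue were compared with each other. Some of these calls hung on single libraries. That of CYP24A1 was lost without SIS regenerated library 2 (edgeR, adjusted p = 0.0879) and that of CYP3A5 without ileum library 5 (0.0573). With no filter on low counts CYP17A1 in the SIS arm (0.064) and CYP27C1 and SULT4A1 in the PRS arm (0.052 and 0.0547) were not past the threshold. CYP3A7 lost its call without ileum library 3 or 5 or SIS regenerated library 1, 2 or 3 (0.0541 to 0.11), and CYP17A1 without ileum library 1, 2 or 5 or SIS regenerated library 1, 2, 3 or 5 (0.0525 to 0.131). In the PRS arm CYP27C1 lost its call without any 1 of the ileum libraries or PRS regenerated library 3 or 4 (0.0553 to 0.146), and SULT4A1 without ileum library 3 or 5 or any 1 of the PRS regenerated libraries (0.0731 to 0.116). CYP4F22 lost it without ileum library 2, 3, 4 or 5 or PRS regenerated library 1 or 2 (0.0585 to 0.0694), and UGT3A1 without PRS regenerated library 1, 2 or 3 (0.0729 to 0.0801) and under DESeq2 (DESeq2, adjusted p = 0.197). Fitted on the ileum and PRS regenerated libraries only, 11 members passed: CYP4V2 (edgeR, adjusted p = 0.113), CYP4F12 (0.0605) and UGT3A1 (0.162) no longer did, and CYP4F8, CYP4F22 and CYP27C1 had too few reads for that fit. Fitted on the ileum and SIS regenerated libraries only, CYP17A1 (0.0563) and CYP3A7 (0.0778) were not past the threshold.

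The change from native bladder to graft was then compared between arms, which takes each arm's own native bladder into account. In the SIS arm 11 members had a lower and 4 a higher log2 change than in the Entero arm (28.8% of those tested, where 6.56% of all genes tested passed, 2.97% lower and 3.59% higher), and in the PRS arm 7 and 3 did so (19.2%, where 3.47% of all genes passed, 1.91% lower and 1.56% higher). Both comparisons share the Entero libraries. CYP2S1 differed by -5.93 ± 0.87 in the SIS and -7.40 ± 0.94 in the PRS arm (edgeR, adjusted p = 0.000152 and 4.45e-05), CYP4F2 by -10.87 ± 1.58 and -8.73 ± 1.67, CYP3A4 by -6.72 ± 1.59 and -7.47 ± 1.73, and UGT2A3 by -7.45 ± 1.72 and -7.57 ± 1.83. CYP39A1 differed by 2.05 ± 0.37 and 1.82 ± 0.39 in the opposite direction (edgeR, adjusted p = 0.00092 and 0.00696). With the animal as a block, 9 members passed in the SIS arm (2 higher, 7 lower) and 4 in the PRS arm (1 higher, 3 lower). How many of all genes passed with the block was not counted. In the PRS arm the members were CYP2S1, CYP39A1, CYP3A4 and UGT2A3, the last of which was not past the threshold without PRS native library 3 or PRS regenerated library 1 (edgeR, adjusted p = 0.0588 and 0.0516). In the SIS arm the block ended the calls of CYP24A1, CYP4F8, SULT1B1, SULT2B1, SULT4A1 and UGT8 (edgeR, adjusted p from 0.0749 to 0.182), and in the PRS arm those of CYP27A1, CYP27C1, CYP2J2, CYP4F12, CYP4F2 and CYP4F8 (0.075 to 0.179).

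Fitted on the compared groups alone, CYP4V2 in the SIS arm (edgeR, adjusted p = 0.0708) and CYP27A1, CYP4F12 and CYP4F8 in the PRS arm (0.0559, 0.081 and 0.0506) were not past the threshold, nor was CYP4F12 in the PRS arm with no filter on low counts (0.052). Single libraries also decided calls. In the SIS arm CYP24A1 lost its call without Entero native library 1, ileum library 2 or 3, SIS native library 2, 4 or 5 or SIS regenerated library 2 (edgeR, adjusted p from 0.0501 to 0.184), the highest value being that without SIS regenerated library 2. SULT1B1 lost it without SIS native library 1 (0.962), the only SIS native library with a read of it, and SULT4A1 without SIS native library 4 (0.0994). CYP4F8 lost it without Entero native library 1, ileum library 5, SIS native library 3 or SIS regenerated library 3 or 5 (0.053 to 0.0578), and SULT2B1 without Entero native library 1 or 5, ileum library 5, SIS native library 1 or 2 or SIS regenerated library 1 or 3 (0.0531 to 0.0712). CYP4V2 lost it without Entero native library 1, 2 or 5, ileum library 5, SIS native library 1, 4 or 5 or SIS regenerated library 3 or 5 (0.0552 to 0.0733), and UGT8 without Entero native library 1, 2, 3, 4 or 5, ileum library 1, 2 or 5, SIS native library 3, 4 or 5 or SIS regenerated library 1, 2, 3 or 5 (0.0542 to 0.0769). In the PRS arm CYP4F2 lost its call without PRS native library 4 (0.117) and CYP4F8 without PRS regenerated library 3 (0.0609). CYP27C1 lost it without PRS native library 1, 3 or 4 or PRS regenerated library 3 (0.0518 to 0.0662), and CYP4F12 without Entero native library 2, 3, 4 or 5, ileum library 1 or 5, PRS native library 1, 2, 3 or 4 or PRS regenerated library 1, 2, 3 or 4 (0.052 to 0.0877).

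Between the regenerated tissues of the PRS and SIS arms, 0 of the 52 tested members and 0% of all genes tested passed (edgeR). At an unadjusted p under 0.05 stood 3 members (763 of all genes), and DESeq2 called 1, SULT4A1, on its 1 read. CYP1A1 had the smallest p, with 387 ± 764 CPM in PRS (n = 4) and 9.96 ± 5.56 CPM in SIS regenerated tissue (n = 5; log2 difference 5.28 ± 1.63, edgeR, unadjusted p = 0.00331, adjusted p = 1). Without PRS regenerated library 4 the log2 difference of CYP1A1 was -1.04. CYP2W1, a P450 of fetal and tumour tissue, was at 0.0693, 0, 0 and 0.158 CPM in PRS and 0.746, 0.701, 1.85, 0.836 and 1.59 CPM in SIS regenerated tissue, without overlap (edgeR, unadjusted p = 0.0324, adjusted p = 1). CYP24A1 (0.0365 unadjusted) was again highest in SIS library 2, and CYP27B1, CYP2R1 and CYP39A1 came next (unadjusted p from 0.0685 to 0.0851).

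The native bladders of the 3 arms were compared as a check of the baseline. In each of the 3 comparisons 0 of the 52 tested members and 0% of all genes tested passed (edgeR). At an unadjusted p under 0.05 stood 3 members (711 of all 17177 genes) in SIS against Entero, 3 (369) in PRS against Entero and 5 (1205) in PRS against SIS, and DESeq2 called 0, 1 and 1, in both cases SULT4A1. CYP2S1 was at 2.46, 3.43, 0.813 and 2.34 CPM in the PRS arm and at 0.256 to 0.759 CPM in the SIS arm, without overlap (log2 difference 2.01 ± 0.62, edgeR, unadjusted p = 0.00346, adjusted p = 0.536). SULT1B1 had 40 reads in the Entero native libraries and none in the PRS native libraries, at least 12.2-fold fewer (edgeR, unadjusted p = 0.00686, adjusted p = 1). CYP4F12 was at 64.8 ± 42.2 CPM in SIS and 31.6 ± 15.2 CPM in Entero native bladder (edgeR, unadjusted p = 0.0458, adjusted p = 1), and SULT1E1 at 0.0742 ± 0.103 against 1.199 ± 1.94 CPM (0.0329 and 1). CYP27C1 and CYP11A1 had no read in the PRS native bladder and 17 and 19 reads in that of the Entero arm. SULT1C4, which sulfates small phenols, was at 10.4 ± 5.84 CPM in the PRS and 36.2 ± 39.2 CPM in the SIS arm (edgeR, unadjusted p = 0.0399, adjusted p = 0.68).

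SULT1C4 and UGT1A10B took opposite places in some libraries with little uroplakin. Native library 4 of the Entero and of the SIS arm, the lowest in UPK1A and in the urothelium sum of their groups, held the most SULT1C4 (60.7 and 104 CPM) and the least UGT1A10B (70.6 and 16.5 CPM) of their groups. SIS regenerated library 2, also the lowest of its group in both, was the highest for SULT1C4 (34.8 CPM) and the lowest for UGT1A10B (49.99 CPM). PRS regenerated library 2, the lowest of its group in the urothelium sum (335 CPM) but not in UPK1A (135 CPM), was likewise the highest for SULT1C4 (73.1 CPM) and the lowest for UGT1A10B (18.9 CPM). The PRS libraries of animal 4 were the lowest in UPK1A of their groups, and the native one was also the lowest in the urothelium sum (782 CPM) while the regenerated one was not (1273 CPM). They held SULT1C4 at 8.53 and 6.98 CPM and the most UGT1A10B of their groups (464 and 773 CPM). The muscle transcript DES was at 32653, 33443, 17492 and 31035 CPM in the first 4 of these libraries, the highest of their groups, and at 1144 and 1524 CPM in those of PRS animal 4. Not all libraries rich in muscle held much SULT1C4. PRS native library 2, with the highest sum of the 4 smooth muscle markers in its group (50970 CPM), had its fewest SULT1C4 reads (127). Ileum library 3, the highest ileum library in that sum (74711 CPM), had the fewest SULT1C4 reads of the ileum graft (503). The part of the tissue mix in these values was not tested.

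The 7 members that were not tested had few reads over the 28 libraries. CYP11B1, an enzyme of cortisol synthesis, had none, and UGT2B42, UGT2A2 and SULT1C3 had 4, 9 and 20 reads. CYP8B1, which sets the kind of bile acid made in liver, had 60 reads in 10 libraries, CYP1A2, the liver partner of CYP1A1, 66 reads in 7 libraries, and UGT3A2, a relative of UGT3A1, 61 reads in 9 libraries. CYP1A2 reached its highest levels in native library 4 of the PRS arm (0.74 CPM) and in ileum library 4 (0.713 CPM). Both held the most CYP1A1 of their groups, as did SIS native library 2 (CYP1A2 at 0.0603 CPM). PRS regenerated library 4 and Entero native library 4 also held the most CYP1A1 of their groups (1533 and 194 CPM) but no read of CYP1A2. A count of 0 allows up to 3 reads, and such limits cover counting error only.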

How the data were processed

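Poly-A RNA of bladder and graft pieces was sequenced as paired-end, directional libraries, per the labels' protocols. The authors deposited whole-number read counts per gene, not normalized, with the gene symbol and gene length beside them. Per the submitters' processing notes, the tools included HISAT2 2.0.5, featureCounts 1.5.0-p3 and StringTie 1.3.3b. Not given in the sources used here were the genome build, the strand setting of the counting and the handling of reads that match several genes, so reads of overlapping, antisense or near-identical genes cannot be told apart.

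The deposited counts of all 28 libraries were fitted with edgeR 4.0.16 in R 4.3.3 (TMM scaling, filterByExpr with a minimum count of 10, 1 mean per group, quasi-likelihood test). P-values were adjusted by Benjamini-Hochberg over all 17177 genes that passed the filter of 27533. Standard errors are the log2 fold change divided by the root of F. The model also gave the difference of change between arms. Intervals are at 95%. Where a group had no read, a floor of 3 counts for the whole group stood in for it in folds. All libraries were mapped to groups, and 0 columns of other samples were found. Libraries had 20975648 to 35669026 counts.

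Each animal gave both libraries of its pair, by the animal code in the labels. Over 14 animals the deviations of the paired libraries from their group means correlated at a median of 0.10 (-0.19 to 0.61), over 0.1 in 7. For 5 of the 14 the native library correlated more with its own graft than with any other graft of the arm. The animal codes hold an F or an M, and every group holds both. M stands in libraries 4 and 5 of the Entero and SIS groups and in libraries 3 and 4 of the PRS groups. This letter was not a term of any fit, and its part in the results was not tested. Whether animals within a group differ in other ways, such as batch, is unknown here.

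The members and gene lists were chosen with earlier results of these data known. Named were all members past the threshold in graft against native bladder, otherwise the 6 smallest p, a fixed set of members, the highest members per kb and up to 4 genes per list. NR1I2, HNF4A, VDR, AHR, STS, PAPSS1, CES2, SLCO1A2, ESR1 and the unlisted members named in single sentences were picked after their values were seen. Alternatives were DESeq2 1.42.0, its size factors, no filter, the compared groups alone, the animal as a block and 28 fits that leave out 1 library each. The share of all genes called was counted in the main fit only, so member counts under the alternatives have no such share beside them. The scripts were tested on simulated counts with 100 genes changed by 2 and 100 by 3 log2 units in the ileum graft. Against native bladder, edgeR called 40% and 75% of these and made 4 false calls among the 17177 genes. Some genes of the lists are not reported here.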

Additional observations from a re-analysis of the deposited data

Results flagged for a closer look

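Within groups of 4 or 5 libraries, a library was marked where its gap to the next one, as a share of the group's range on the log2(CPM + 0.5) scale, passed Dixon's limit. Over 38 named members and 6 groups (228 groups in all) 9 were marked, and chance marks about 1 in 20 groups; groups with all libraries under 1 CPM were not marked. CYP1A1 stood at 1533 CPM in PRS regenerated library 4 (others 3.21 to 7.71 CPM). CYP24A1 stood at 35.2 CPM in SIS regenerated library 2 (others 0 to 1.05 CPM), where CYP2R1 was low at 3.37 CPM (others 8.04 to 9.59 CPM). SULT1E1 stood at 3.23 CPM in SIS regenerated library 4 (others 0 to 0.31 CPM). SULT4A1 stood at 11.4 CPM in SIS native library 4 (others 0 to 0.0603 CPM). CYP27A1 was low at 12.1 CPM in PRS native library 3 (others 26.3 to 30.01 CPM). PRS regenerated library 2 was low for CYP2J2, at 5.87 CPM (others 11.7 to 12.3 CPM), and for CYP4F12, at 23.6 CPM (others 80.8 to 96.4 CPM). UGT3A1 stood at 1.74 CPM in PRS regenerated library 4, while the other 3 libraries had no read.

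The change from native bladder to graft differed between arms for 25 pairs of member and arm, by the edgeR test of the difference itself without a term for the animal. Native and graft libraries share an animal, and with the animal as a block 6 of the 15 calls in the SIS arm (CYP24A1, CYP4F8, SULT1B1, SULT2B1, SULT4A1 and UGT8) and 6 of the 10 in the PRS arm (CYP27A1, CYP27C1, CYP2J2, CYP4F12, CYP4F2 and CYP4F8) were not past the threshold. Given as the log2 change in the SIS arm minus that in the Entero arm, CYP4F2 differed by -10.87, CYP3A4 by -6.72, CYP2S1 by -5.93, CYP2J2 by -4.92, CYP27A1 by -3.70 and CYP4F12 by -3.49. UGT2A3 differed by -7.45, UGT8 by -6.54, SULT1B1 by -7.37, SULT2B1 by -4.78 and SULT4A1 by -14.66. In the other direction stood CYP24A1 at 8.32, CYP4F8 at 8.80, CYP39A1 at 2.05 and CYP4V2 at 2.03. For the PRS arm minus the Entero arm, CYP4F2 differed by -8.73, UGT2A3 by -7.57, CYP3A4 by -7.47, CYP2S1 by -7.40, CYP2J2 by -5.04, CYP27A1 by -2.74 and CYP4F12 by -2.66. Higher there were CYP27C1 at 10.63, CYP4F8 at 10.49 and CYP39A1 at 1.82. The values of SULT4A1, CYP4F8 and CYP27C1 come from fits with a group at 0 reads, so they depend on the model's prior count and are no bound.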

How the results depend on the processing

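No member that passed changed direction under any alternative run. Of the members called, 15 of 20 kept their call in every alternative that gave a value for ileum graft against native bladder, 18 of 22 for SIS and 11 of 17 for PRS regenerated tissue against ileum graft, and 8 of 15 and 3 of 10 for the difference of change in the SIS and PRS arms. CYP4F8, CYP4F22, CYP24A1, CYP27C1, SULT4A1 and UGT3A1 had no value in some fits, mostly because fewer libraries left them below the filter on low counts. UGT3A1, counted among the 15, had a value in 7 leave-one-out fits of ileum graft against native bladder, where CYP2S1 had a value in 10. The fits without a value could not test its call. Leaving out 1 library at a time gave 15 to 20, 18 to 23, 13 to 16, 10 to 16 and 7 to 11 calls in these 5 comparisons and 0 to 0 in the others. Fitted on the compared groups alone, PRS regenerated tissue against ileum graft gave 11 calls and the difference of change in the PRS arm 6. With the animal as a block, the pairing gave 9 calls in place of 15 for the difference of change in the SIS arm and 4 in place of 10 in the PRS arm. Shares of all genes called were not counted in the alternatives, so these member counts cannot be set against them. DESeq2 called 1 member, SULT4A1, where edgeR called 0: in regenerated against native tissue of the SIS and of the PRS arm, in PRS against SIS regenerated tissue, and in PRS native bladder against that of the Entero and of the SIS arm. Among members that did not pass, the block turned the log2 difference of ileum graft and native bladder to -0.13 for CYP11A1, -0.34 for CYP1A1, -0.29 for CYP26A1 and -0.26 for CYP27B1, that of CYP4F12 in the SIS arm to 0.079 and that of UGT1A10B in the PRS arm to -0.24. With 1 library left out, CYP1A1 ranged from -0.12 to 0.62 and CYP26A1 from -0.58 to 0.62 in the Entero arm, CYP4F12 from -0.42 to 0.32 in the SIS arm, UGT1A10B from -0.31 to 0.71 in the PRS arm, CYP1A1 from -1.04 to 5.70 between the regenerated tissues and SULT4A1 from -2.09 to 7.41 between the native bladders of the SIS and Entero arms. The cause was not tested. With 4 or 5 animals a group and wide intervals, a p that misses the threshold does not show that tissues are alike, and members at few reads cannot resolve small differences.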
